A study of Homo sapiens with 12 samples.

Results

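The response of SH-SY5Y cells to the siRNA s18790 against SETD1A was compared with the response to a control siRNA. The comparison uses 8 of the 12 arrays, taken by their labels: 4 from cells that received s18790 and 4 from cells that received the control siRNA. SH-SY5Y is a human neuroblastoma line of sympathetic neuroblast character. All cells were transfected with Lipofectamine RNAiMAX and harvested 96 hours later, and total RNA of each sample was read on a single-colour Illumina bead array. The other 4 arrays came from cells that received a second siRNA against the same gene, s18789. They entered the estimate of the spread and are set beside s18790 where the values differ. The labels do not say whether the samples within a group were grown as separate cultures, and the p-values below therefore reflect only how far these samples differ from each other, which may be technical. An siRNA lowers a transcript without removing it, and it can also act on other transcripts that share part of its sequence.

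SETD1A is a catalytic subunit of a SET1 complex, which adds methyl groups to lysine 4 of histone H3, mainly at the promoters of active genes. The complex shares its core subunits WDR5, RBBP5, ASH2L and DPY30 with the MLL complexes. Rare damaging variants in SETD1A are known to raise the risk of schizophrenia. Most markers of noradrenergic neuroblasts, the character of the line, were expressed. Of 15 such markers 12 were measured, among them DBH, HAND2, GATA2, ISL1 and PHOX2A. 1 of the 12, the lineage transcription factor GATA3, was called higher with s18790. None of 10 Schwann and glial markers passed the detection filter, and 3 of 8 immune markers and 1 of 10 endothelial or epithelial markers did. Of 23 markers of a mesenchymal neuroblastoma state 11 passed it.

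Only probes detected (detection p under 0.01) on 4 or more of the 12 arrays were tested, 15922 probes that stand for 9833 named genes. A gene is termed called where its adjusted p was under 0.05 in the limma fit of all arrays, and levels are normalized log2 intensities. Before any comparison, 2 arrays lay apart from their groups. On the first principal component, with 60.6% of the variance, s18790 replicate 2 lay at 83.9 and control replicate 4 at 26.8, while the other 10 arrays lay between -23.8 and 12.8. The median correlation of s18790 replicate 2 with the other s18790 arrays was 0.925 and that of control replicate 4 with the other controls 0.971, against 0.985 to 0.993 for the other 10 arrays. These arrays also had the lowest shares of probes detected, 29.1% and 29.3%, where the other arrays had 30.1% to 33.6%. Results are therefore given with all arrays and without s18790 replicate 2.

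SETD1A itself was lower with s18790. Its probe read 6.99, 7.46, 6.91 and 6.84 on s18790 replicates 1 to 4, against 7.52, 7.65, 7.51 and 8.04 on control replicates 1 to 4. The groups do not overlap, but s18790 replicate 2 lay close to the lowest control. The difference was -0.63 on the log2 scale (95% interval -0.96 to -0.29), or 64.6% of the control level, with an adjusted p of 0.0276 in limma and an exact two-sided permutation p of 0.0286, the smallest that 70 arrangements allow. Without s18790 replicate 2 the difference was -0.77, or 58.8% of the control level, with an adjusted p of 0.00269 in limma. The call was lost in 4 of the 12 fits that left out 1 array (adjusted p up to 0.0732).

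Of 18 measured genes of the SET1 and MLL complexes, 2 were lower with s18790, SETD1A and DPY30, and 0 were higher. Of all genes 4.78% were lower and 5.05% higher. DPY30, a shared core subunit, differed by -0.41 on the log2 scale with s18790 replicate 2 and also without it. Among 14 other histone lysine methyltransferases and 12 histone lysine demethylases, 0 were called in either direction in limma. The list medians were -0.00 and 0.09 on the log2 scale, where all genes had a median of 0.02. The nearest to a call were KDM2A at 0.33 (adjusted p = 0.123 in limma) and SETDB2 at -0.50 (adjusted p = 0.155 in limma).

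With all arrays, 967 of 9833 genes were called (9.83%), 497 of them higher (5.05%) and 470 lower (4.78%) with s18790. Over probes the count was 1323 of 15922 (8.31%), of which 641 were higher and 682 lower, and 113 changed by more than 2-fold. Without s18790 replicate 2 the count of genes was 1255 (12.8%), with 540 higher (5.49%) and 715 lower (7.27%). Leaving the array out thus gave more calls, mainly among the lower genes. Without control replicate 4 the count was 1217 (12.4%), with 703 higher (7.15%) and 514 lower (5.23%), and without both arrays it was 1953 (19.9%), with 976 higher (9.93%) and 977 lower (9.94%). In both fits 415 genes were higher and 449 lower, and 0 probes were called in opposite directions. Of the 1323 probes called with all arrays 89.8% were also called without s18790 replicate 2, and of the 1798 called without it 66.1% were also called with it. Other choices of arrays gave fewer calls. The count of probes was 428 when the s18789 arrays were left out of the fit. It was 583, 609 and 612 without control replicates 1, 2 and 3, and 714 without s18790 replicate 1. Median scaling in place of quantile normalization gave 173 probes higher and 636 lower, so the balance of directions depends on the scaling. The median difference of all genes was -0.06 under that scaling and 0.02 under the main one.

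**Figure D1:**
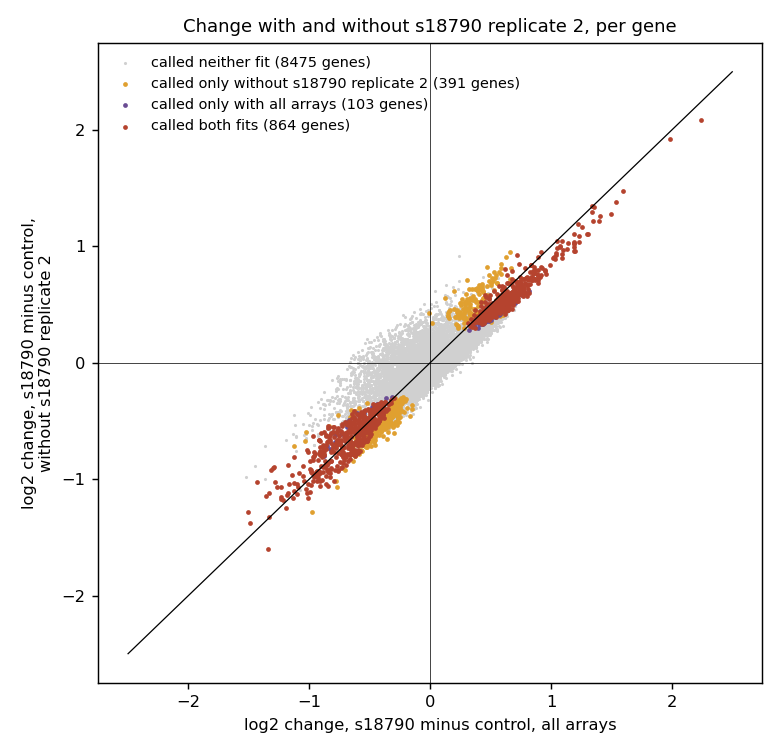
Each point is a gene, with the log2 difference of s18790 minus control from all arrays on the x axis and from the fit without s18790 replicate 2 on the y axis. The 864 genes called in both fits lie along the diagonal, 391 genes were called only without that array and 103 only with it.

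Values of s18790 replicate 2 did not sit at one end for all genes. Among the 497 higher genes it was the highest s18790 array for 79.5%, where it was the highest for 52.8% of all genes. Among the 470 lower genes it was the lowest for 42.3% and the highest for 36.0%, where over all genes it was the lowest for 34.9% and the highest for 52.8%. For a share of the falls it therefore carried the largest difference, and for a smaller share the smallest. The genes were called on means that include this array, so these shares are a description only. The groups did not overlap for 1502 genes (15.3%), of which 836 were above (8.5%) and 666 below (6.77%) all controls with s18790, and 878 of the 1502 were called.

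The largest rises included MAGEC2, STMN4, CBLN2 and MYCN. MAGEC2, an X-linked cancer-testis antigen normally confined to germ cells and some tumours, read 7.28, 7.65, 6.80 and 6.92 with s18790, against 4.85, 4.78, 4.83 and 5.21 with the control siRNA. It was above background on all 4 s18790 arrays and on 0 control arrays. It was at least 2.81-fold higher with s18790 (adjusted p = 5.12e-05 in limma). Such bounds set the mean of the brighter group against the lowest level that counts as above background on the dim arrays. STMN4, a neuronal stathmin that binds tubulin, read 7.79, 8.22, 7.94 and 8.11 with s18790, against 6.01, 6.22, 5.51 and 6.37 with control siRNA. Its groups are far apart, at 3.96-fold (log2 difference 1.99 ± 0.17 SE, adjusted p = 7.65e-05 in limma). CBLN2, a secreted cerebellin that binds neurexins at synapses, read 9.74, 9.81, 9.62 and 9.80 with s18790, against 8.36, 8.46, 8.11 and 8.61 with control siRNA. That is 2.56-fold higher (log2 difference 1.36 ± 0.11 SE, adjusted p = 6.38e-05 in limma), and the spread within each group was small beside it.

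MYCN, the MYC family transcription factor whose amplification marks aggressive neuroblastoma, read 8.22, 8.70, 8.06 and 8.26 with s18790, against 7.05, 6.78, 6.93 and 7.08 with control siRNA. Every s18790 array was above every control, by 2.55-fold in the means (log2 difference 1.35 ± 0.14 SE). ADGRG2, an adhesion G protein-coupled receptor, had the smallest SE of the 15 largest rises, with a log2 difference of 1.34 ± 0.09. The other rises of this size were TMEFF2 (at least 2.13-fold), GNG3 (at least 2.04-fold), TTC9B (at least 1.78-fold), TACC2 (at least 1.60-fold) and CPEB1 (at least 1.45-fold), all below background on every control array, and SH2D3C at 2.63-fold. GNG3 encodes a neuronal G protein gamma subunit, TACC2 a protein that binds microtubule-associated factors, and CPEB1 a regulator of cytoplasmic polyadenylation. All 15 of the largest rises kept their call in each of the 21 or 22 alternatives in which they were tested. They were picked as called with all arrays and without s18790 replicate 2, 1 of these alternatives, so the choice fixed part of this. Only 5 could be tested over probes detected on all 12 arrays.

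**Figure D2:**
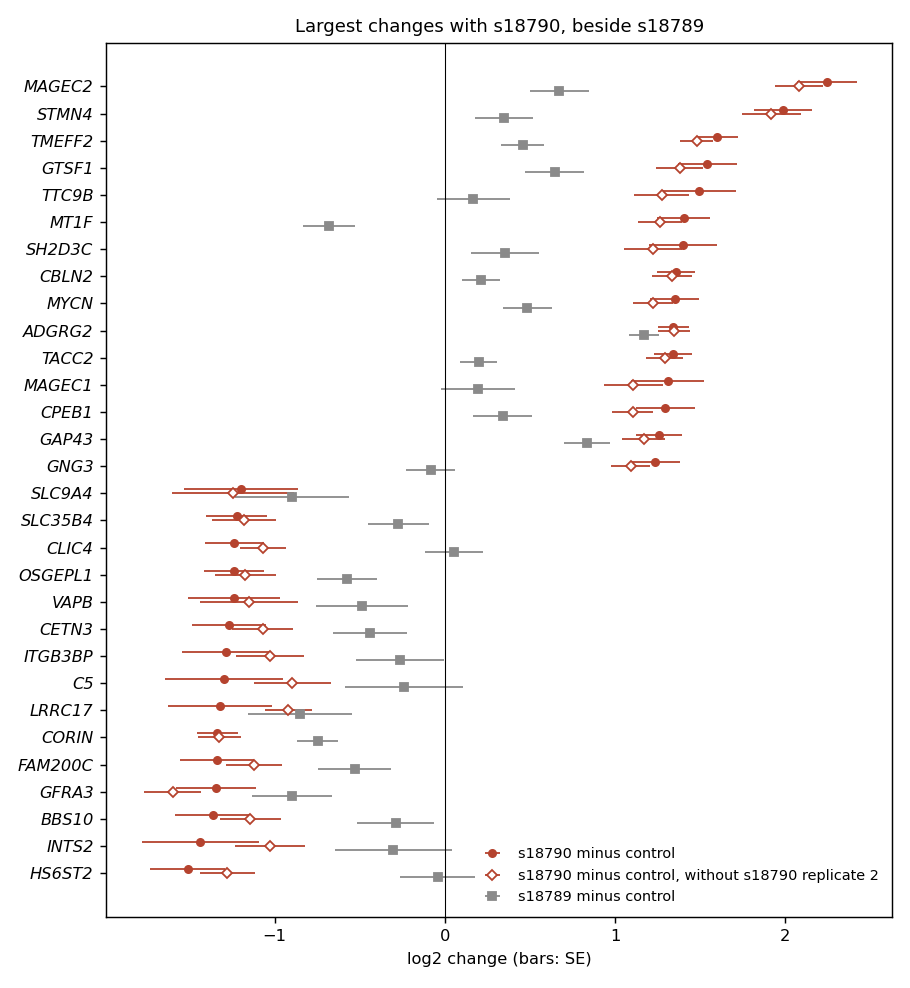
Log2 differences from control (x axis, bars are SE) of the 15 largest rises and 15 largest falls with s18790, with all arrays (filled circles), without s18790 replicate 2 (open diamonds) and, beside them, of s18789 (grey squares). The genes were chosen by their s18790 values, MT1F has an s18789 value of opposite sign (-0.68), and that of ADGRG2 (1.17) lies beside its s18790 value.

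The largest falls were spread over more functions. HS6ST2, which sulfates heparan sulfate chains, read 7.04, 6.06, 7.21 and 6.71 with s18790, against 8.44, 8.49, 8.26 and 7.86 with control siRNA. It was 2.85-fold lower with all arrays (log2 difference -1.51 ± 0.22 SE) and differed by -1.28 without s18790 replicate 2, its lowest array. CLIC4, a chloride intracellular channel family member, read 8.88, 8.27, 9.09 and 8.84 with s18790, against 10.05, 10.19, 10.14 and 9.64 with control siRNA. Both groups were well above background and do not overlap, at a log2 difference of -1.24 ± 0.17 SE. GFRA3, the receptor for the neurotrophic factor artemin, read 4.79, 5.72, 4.58 and 4.71 with s18790, against 6.15, 6.29, 6.01 and 6.73 with control siRNA. It was below background on all s18790 arrays and at least 1.5-fold lower. Here s18790 replicate 2 was the highest of its group, and the fitted difference was -1.60 without it and -1.34 with it.

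NUP37, a subunit of the outer ring of the nuclear pore, was among the tightest falls. It read 8.68, 8.64, 8.63 and 8.73 with s18790, against 9.60, 9.51, 9.73 and 9.70 with control siRNA, a log2 difference of -0.96 ± 0.09 SE that was the same without s18790 replicate 2. INTS2 belongs to Integrator, which cleaves nascent small nuclear RNAs. It read 7.23, 5.71, 7.38 and 7.44 with s18790, against 8.44, 8.53, 8.78 and 7.75 with control siRNA. The groups do not overlap, and the difference was -1.44 with s18790 replicate 2, its lowest array, and -1.03 without it. Its call was lost in 5 of 21 alternatives, and among the other large falls so were those of LRRC17 in 5, C5 in 10, VAPB in 2 and SLC9A4 in 10. CORIN, the protease that activates natriuretic peptides, was below background on all s18790 arrays and at least 1.31-fold lower (adjusted p = 0.000103 in limma). OSGEPL1, an enzyme of mitochondrial transfer RNA modification, and SLC35B4, a transporter of nucleotide sugars, were lower by 1.24 and 1.22 on the log2 scale and kept their calls in each alternative run.

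**Figure D3:**
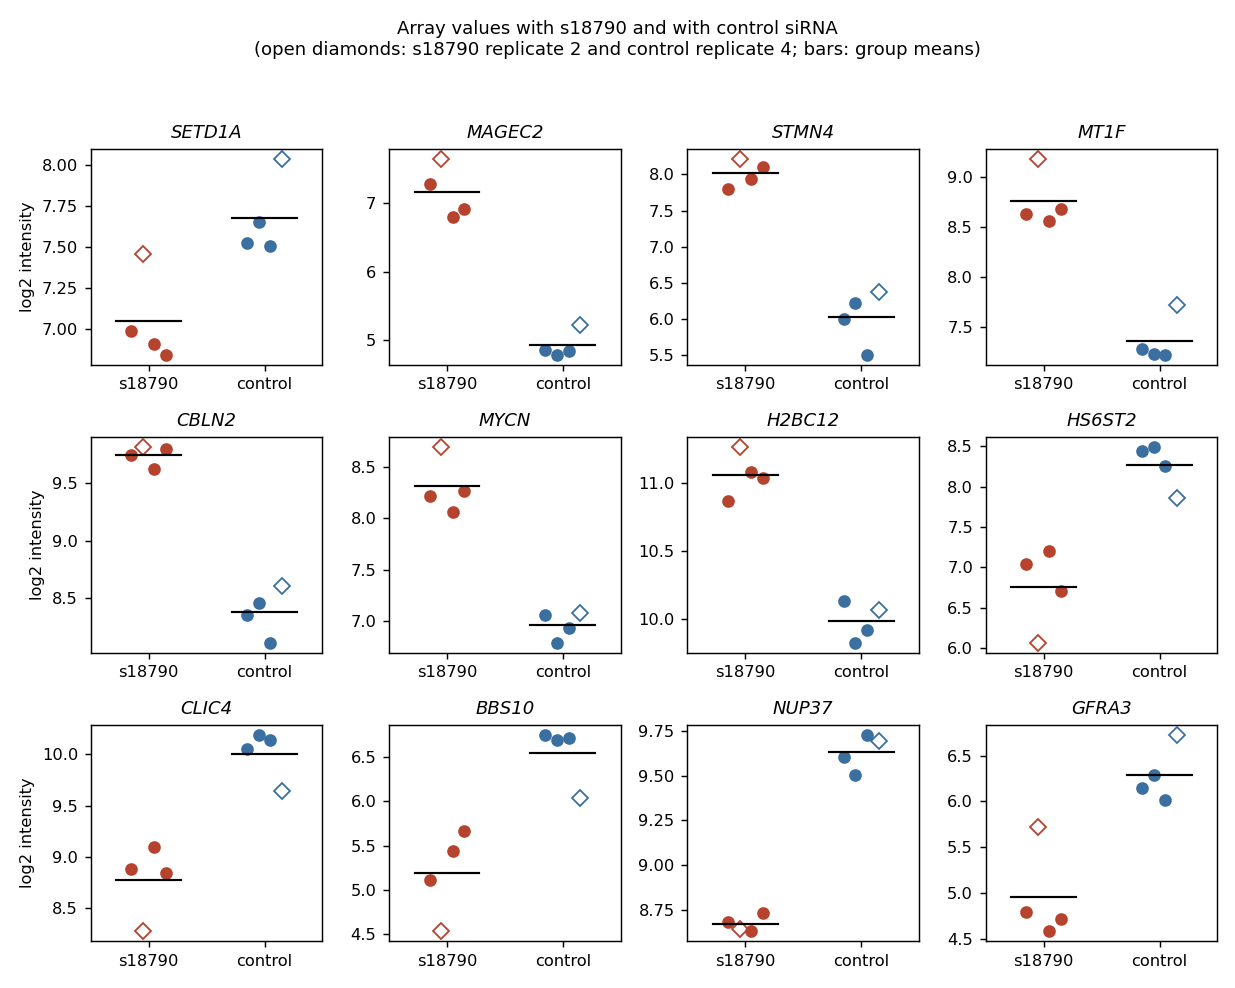
Normalized log2 intensity (y axis, not starting at 0) of 12 genes on the 4 s18790 and the 4 control arrays, with bars at group means and open diamonds for s18790 replicate 2 and control replicate 4. The groups do not overlap for any of the 12, while the diamond of s18790 replicate 2 lies at the low edge of its group for HS6ST2, CLIC4 and BBS10 and within its group for NUP37.

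Several cancer-testis antigens and germ cell genes were higher with s18790. Of 37 listed genes 11 were measured, and 5 of them were higher with s18790 and 0 lower, with a median log2 difference of 0.50. Of all genes 5.05% were higher and 4.78% lower. MAGEC2, GTSF1 and MAGEC1 were below background on every control array and would not have passed the detection filter without the s18790 arrays. A fall of these genes could thus hardly be seen, so the count and the median are a description only. GTSF1, a cofactor of PIWI proteins in germ cells, read 5.96, 6.81, 6.38 and 6.15 with s18790, against 4.81, 4.74, 4.64 and 4.95 with control siRNA. It was above background on 4 s18790 arrays, 1 s18789 array and 0 control arrays. MAGEC1 read 6.58, 6.99, 6.15 and 5.83 with s18790, against 4.94, 4.99, 4.96 and 5.43 with control siRNA. GTSF1 was at least 1.57-fold higher and MAGEC1 at least 1.64-fold higher. MAGEA10, which was above background in both groups, was 2.13-fold higher and MAGEA2 higher by 0.58 on the log2 scale. Without s18790 replicate 2 the count was 6 of 11, with TDRD1, a Tudor domain protein of the germ line, at 0.66.

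The windows from 250 bases before to 50 bases after the start of MAGEC2 and MAGEC1 are shown because both genes lie on the X chromosome and were above background on all s18790 arrays and on 0 control arrays. Sequences are from RefSeq on GRCh38.p14 at the first start listed, and capitals mark CpG dinucleotides. MAGEC2 lies at chrX:142205241-142205540 on the minus strand and MAGEC1 at chrX:141903644-141903943 on the plus strand.
MAGEC2: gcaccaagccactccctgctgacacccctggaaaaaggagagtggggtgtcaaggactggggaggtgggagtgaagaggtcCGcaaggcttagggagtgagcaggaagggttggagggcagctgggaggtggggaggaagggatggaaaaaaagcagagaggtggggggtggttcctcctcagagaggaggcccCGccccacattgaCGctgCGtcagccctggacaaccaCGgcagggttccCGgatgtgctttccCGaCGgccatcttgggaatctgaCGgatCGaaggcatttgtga
MAGEC1: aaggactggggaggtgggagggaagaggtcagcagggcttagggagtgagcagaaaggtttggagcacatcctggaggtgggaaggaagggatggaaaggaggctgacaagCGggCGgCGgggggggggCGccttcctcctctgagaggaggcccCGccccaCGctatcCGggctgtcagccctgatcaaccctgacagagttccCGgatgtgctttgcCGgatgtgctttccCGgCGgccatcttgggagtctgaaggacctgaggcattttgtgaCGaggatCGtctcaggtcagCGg
The MAGEC2 window held 10 CpG dinucleotides at 61.0% GC and the MAGEC1 window 14 at 62.7% GC. Their longest shared runs were 2 stretches of 20 bases, aaggactggggaggtgggag and gagaggaggccccgccccac. Over all tested genes with a promoter in the table, the median window held 27 CpG dinucleotides, so both windows were poorer in CpG than most.

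Genes of the microtubule cytoskeleton were called in 1 direction. Of 32 measured genes listed as tubulins, stathmins and microtubule-associated proteins 8 were higher with s18790 and 0 lower. Without s18790 replicate 2, 10 were higher. GAP43 was 1 of the 8, although it belongs to none of these classes. The list median was 0.24 on the log2 scale, against 0.02 for all genes, and 29 of the 32 differences were positive. GAP43, a growth cone protein of extending axons, read 8.84, 9.19, 8.72 and 8.91 with s18790, against 7.59, 7.51, 7.51 and 8.01 with control siRNA. The groups do not overlap, and GAP43 was 2.39-fold higher (adjusted p = 0.000263 in limma). MAP6, which stabilizes microtubules, rose by 0.85, MAPT, which encodes tau, by 0.77, and the neuronal tubulins TUBB2A and TUBB3 by 0.59 and 0.41 on the log2 scale. DCX, the doublecortin of migrating neurons, was called without s18790 replicate 2 at 0.61 and was at 0.44 with all arrays (adjusted p = 0.0989 in limma). Among the 10 measured intermediate filaments 1 was higher, PRPH, the peripherin of sympathetic neurons, at 1.93-fold. The motor protein genes KIF1A and KLC1 were higher by 0.47 and 0.68, 2 of 23 in their list, where 5.05% of all genes were higher.

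Synaptic and transmitter genes followed the same direction in part. Of 18 synapse organizers and adhesion genes 4 were higher and 0 lower, namely CBLN2, LINGO1, CADM4 and the presynaptic adhesion gene NRXN2. SLC18A3, the vesicular acetylcholine transporter, read 7.39, 7.87, 6.54 and 6.88 with s18790, against 5.74, 6.02, 5.89 and 6.25 with control siRNA. The s18790 arrays were scattered over more than 1 log2 unit but all lay above the controls, at 2.29-fold (adjusted p = 0.00893 in limma). CHRNB4, a nicotinic receptor subunit, and DDC, which makes dopamine from DOPA, were also higher, by 0.58 and 0.46, while GCH1, which makes the cofactor of tyrosine hydroxylase, fell by 0.55. Of 19 synaptic vesicle genes 1 was called, the active zone scaffold BSN at 0.44, near the 5.05% of all genes that were higher. Of the 19 differences 17 were positive, and under median scaling 0 of the 19 genes were called. Over these genes s18790 replicate 2 deviated from the other s18790 arrays by a median of 0.44. Control replicate 4 deviated from the other controls by 0.20, and the part of these arrays was not tested. CHGB, a granin of secretory granules, read 10.58, 10.31, 10.65 and 10.45 with s18790, against 11.17, 11.28, 11.20 and 11.10 with control siRNA. CHGB was thus lower on every s18790 array, by 0.69 on the log2 scale. In its list of neuropeptides and granins 1 of 14 genes was lower and 1 higher, where 4.78% of all genes were lower and 5.05% higher. The higher gene, NTS, which encodes neurotensin, was above background on 3 s18790 arrays and on 0 control arrays and was at least 1.02-fold higher (adjusted p = 0.0164 in limma).

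In the Notch list 6 of 23 genes were higher and 0 lower: DLK1, TLE2, JAG2, LFNG, TLE1 and HEY1. JAG2 is a Notch ligand, LFNG a glycosyltransferase that tunes the receptors, HEY1 a target and TLE1 and TLE2 corepressors. The WNT list had 4 of 21 higher, the inhibitors NKD2, SFRP1 and DKK3 and the receptor FZD9. Under median scaling 1 of the 21 WNT genes and 3 of the 23 Notch genes were called higher. NKD2 was the largest of the WNT genes at 2.35-fold, and DKK3, at 0.46, had its highest value on s18790 replicate 2. Of 16 feedback genes of the RAS-MAPK pathway 3 were higher with all arrays, 2 without s18790 replicate 2 and 1 under median scaling. DUSP8, a phosphatase of stress kinases, was 2.11-fold higher and SPRY4 1.67-fold higher. JUN, a component of AP-1, was 2.06-fold higher and was the 1 called gene of 14 immediate early genes. Of 16 receptor tyrosine kinases and GDNF receptors 1 was higher, GFRA2 at 0.72, and 2 were lower, GFRA3 and ERBB2. Beside the counts of these lists, 5.05% of all genes were higher and 4.78% lower. ERBB2 was below background on all s18790 arrays and at least 1.1-fold lower.

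HAND1, a basic helix-loop-helix factor, read 11.82, 11.84, 11.53 and 11.43 with s18790, against 10.63, 10.50, 10.65 and 10.65 with control siRNA, and GATA3 was higher by 0.45. These were 2 of 18 sympathoadrenal transcription factors, with 0 lower, where 5.05% of all genes were higher. In the MYC and MAX network MYCN and MXD1, a MAX partner that opposes MYC, were higher, 2 of 10 genes. Of 24 MYC target genes of ribosome biogenesis 0 were called, with a list median of 0.12.

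Metallothioneins, small proteins that bind zinc and copper, rose with s18790. MT1F read 8.64, 9.19, 8.57 and 8.68 with s18790, against 7.28, 7.23, 7.22 and 7.72 with control siRNA. MT2A read 8.38, 8.59, 8.29 and 8.41 with s18790, against 7.59, 7.79, 7.65 and 7.52 with control siRNA. Neither gene's groups overlap. MT1F was 2.64-fold, MT2A 1.71-fold and MT1X 1.70-fold higher, each with an adjusted p of at most 0.00214 in limma. Together with the zinc transporter SLC30A3 they made 4 of 12 measured genes of metal handling, with 0 lower. Of all genes 5.05% were higher and 4.78% lower. SLC30A3 was not called without s18790 replicate 2 (0.48, adjusted p = 0.0654 in limma). Metallothionein genes are near-identical, so a probe may also bind transcripts of a paralog.

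The promoters of MT2A and MT1X are shown as the called metallothioneins matched in the promoter table, and because metallothioneins are known targets of the zinc-sensing factor MTF1. Capitals mark the core of the metal response element, searched as TGCACNC or TGCGCNC on both strands. MT2A lies at chr16:56608334-56608633 and MT1X at chr16:56682220-56682519, both on the plus strand of GRCh38.p14.
MT2A: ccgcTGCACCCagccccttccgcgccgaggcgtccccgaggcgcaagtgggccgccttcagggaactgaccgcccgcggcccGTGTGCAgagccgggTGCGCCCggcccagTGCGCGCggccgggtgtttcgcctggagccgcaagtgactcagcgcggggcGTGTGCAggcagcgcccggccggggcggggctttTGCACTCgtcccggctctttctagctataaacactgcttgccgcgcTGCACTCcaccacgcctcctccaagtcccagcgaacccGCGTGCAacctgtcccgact
MT1X: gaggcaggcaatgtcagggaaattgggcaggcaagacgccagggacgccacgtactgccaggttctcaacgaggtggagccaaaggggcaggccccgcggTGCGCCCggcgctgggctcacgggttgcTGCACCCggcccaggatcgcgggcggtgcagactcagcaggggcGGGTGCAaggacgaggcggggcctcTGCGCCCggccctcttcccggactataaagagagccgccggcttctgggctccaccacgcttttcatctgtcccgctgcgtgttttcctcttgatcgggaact
The MT2A window held 8 matches and the MT1X window 4. Of 27305 promoter windows 29.3% held at least 1 match and 0.593% held 4 or more. MTF1 itself was measured and was not among the called genes.

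Replication-dependent histone genes, most of them in clusters on chromosome 6, were higher with s18790. Of 29 listed genes 12 were measured, and 6 were higher and 0 lower, with and without s18790 replicate 2. Of all genes 5.05% were higher and 4.78% lower with all arrays, and 5.49% and 7.27% without that array. The list median was 0.60 with all arrays and 0.48 without that array. H2BC12 read 10.86, 11.26, 11.07 and 11.03 with s18790, against 10.13, 9.83, 9.92 and 10.06 with control siRNA, and was 2.1-fold higher (adjusted p = 0.000375 in limma). H2BC5 read 9.41, 9.38, 9.52 and 9.40 with s18790, against 8.58, 8.61, 8.43 and 8.52 with control siRNA, and was 1.86-fold higher. These 2 genes had nearly the same difference without s18790 replicate 2, at 1.01 and 0.91. The other members that rose, H2BC21, H1-2, H2AC18 and H2AC6, differed by 0.62 to 0.74 on the log2 scale. Under median scaling 2 of the 12 were called. Histone genes of 1 class are near copies, so their probes may share transcripts. Of 10 histone variant genes 0 were called with all arrays.

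The promoter of H2BC12 is shown as the histone gene with the largest rise, with the octamer ATTTGCAT, a known element of H2B promoters, in capitals. It lies at chr6:27146809-27147108 on the minus strand of GRCh38.p14.
H2BC12: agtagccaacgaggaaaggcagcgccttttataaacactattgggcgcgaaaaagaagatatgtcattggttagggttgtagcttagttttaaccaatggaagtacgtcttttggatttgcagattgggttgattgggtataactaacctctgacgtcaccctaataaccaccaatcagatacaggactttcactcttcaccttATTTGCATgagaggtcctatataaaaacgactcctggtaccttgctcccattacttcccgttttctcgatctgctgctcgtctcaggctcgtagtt
The octamer, searched on both strands, occurred in 1.80% of all promoter windows. Among the 11 measured histone genes of the list with a window in the table, 7 held it, 3 of them called and 4 not.

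Among genes of mitochondrial translation and respiration most calls were lower. Of 76 measured mitochondrial ribosomal proteins 12 were lower and 2 higher, and without s18790 replicate 2 the counts were 15 lower and 1 higher. MRPS25 lay between 7.06 and 8.03 with s18790, and its lowest control value was 8.35. MRPS33 read 8.97, 9.24, 9.11 and 8.97 with s18790, against 10.08, 9.89, 9.99 and 9.86 with control siRNA. Both small-subunit proteins had lower values on every s18790 array, by 1.17 and 0.88 on the log2 scale. The list median was -0.05, with 30 of 76 differences positive. Of 62 subunits of respiratory complexes 6 were lower and 1 higher with all arrays, and 10 were lower and 0 higher without s18790 replicate 2. Of all genes 4.78% were lower with all arrays and 7.27% without that array. Under median scaling 2 of the 62 subunits and 9 of the 76 ribosomal proteins were lower, and 430 of all 9833 genes. The lower calls of the respiratory list thus depended on the scaling. NDUFB5 of complex I fell by 0.65, SDHC of complex II by 0.56 and ATP5PO of the ATP synthase by 0.55. The 1 higher gene, NDUFA10, was not called without s18790 replicate 2 (adjusted p = 0.0673 in limma).

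Lower calls also outnumbered higher calls among genes of cilia and kinetochores. Of 32 primary cilium genes 5 were lower and 0 higher with all arrays. BBS10, a chaperonin-like factor that assembles the BBSome, read 5.12, 4.53, 5.44 and 5.66 with s18790, against 6.75, 6.69, 6.72 and 6.04 with control siRNA. It was below background on all s18790 arrays and at least 1.79-fold lower. The BBSome subunits BBS4 and BBS2 fell by 0.50 and 0.42, the tubulin-modifying factor CEP41 by 0.70 and TCTN1 of the ciliary transition zone by 0.64. Of 39 kinetochore genes 4 were lower, ITGB3BP, NSL1, CENPS and DSN1, and 0 higher. Of 26 small nucleolar RNA entries 3 were lower and 1 higher, with SNORD16 at -0.96. Among 43 transfer RNA synthetases and modifying enzymes 3 were lower and 2 higher, and among 48 cytosolic ribosomal proteins 3 were lower, RPL22, RPL28 and RPL26L1, and 0 higher. For comparison, 4.78% of all genes were lower and 5.05% higher, and the shares of these last 2 lists lay near those values.

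Leaving out control replicate 4 gave 7 higher replication-dependent histones, 4 higher cancer-testis genes, 8 higher genes of the microtubule list and 10 lower mitochondrial ribosomal proteins. Leaving out both arrays that lay apart gave 7, 5, 10 and 15. The shares of all genes also grew, to 7.15% higher and 5.23% lower without control replicate 4. Without both arrays they were 9.93% and 9.94%, so counts that stayed alike stood less far above the share of all genes.

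**Figure D4:**
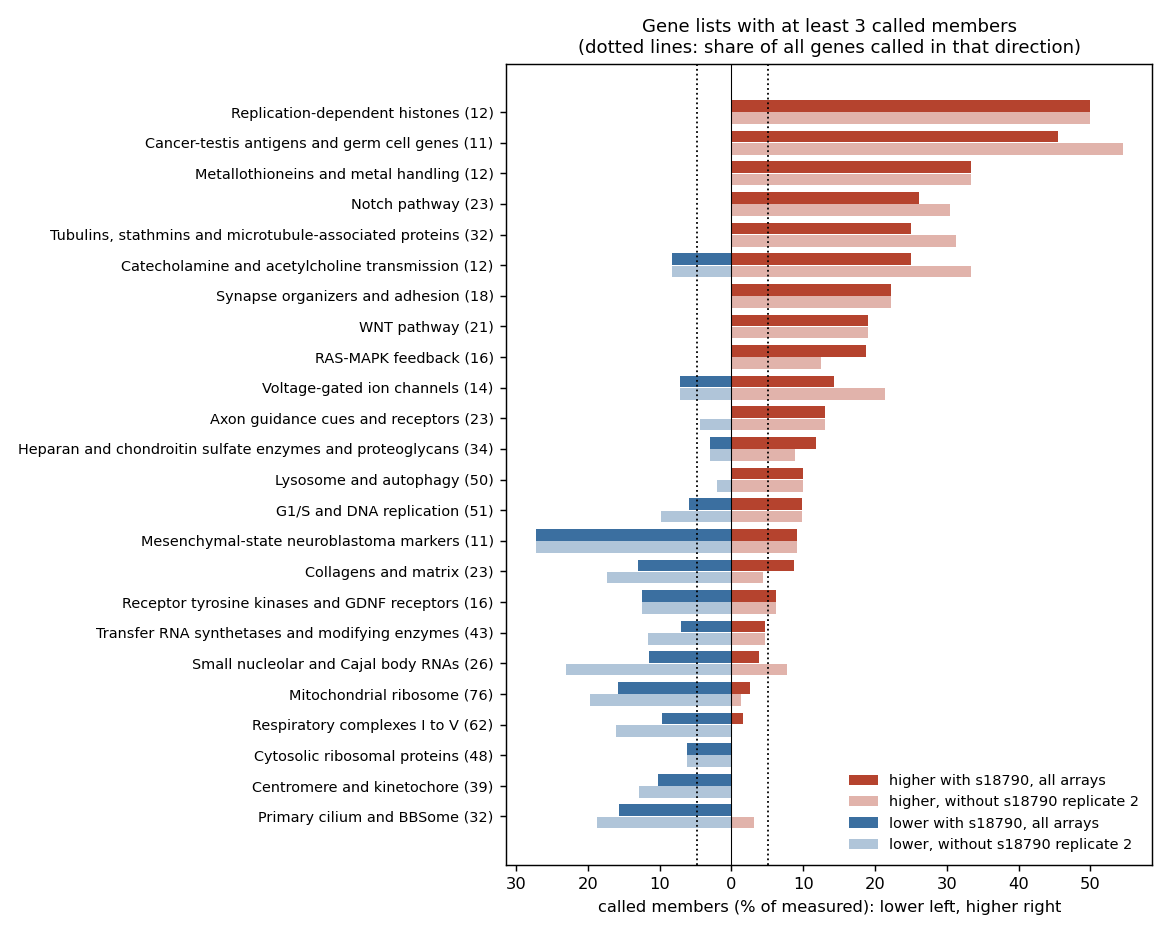
Called members of each gene list with at least 3 calls, as a percent of its measured members (number in brackets), with lower genes to the left and higher genes to the right of 0. Dark bars use all arrays and pale bars leave out s18790 replicate 2. Dotted lines mark the shares of all genes called higher (5.05%) and lower (4.78%).

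Of 51 DNA replication genes 5 were higher and 3 lower, where the shares of all genes were 5.05% and 4.78%, and under median scaling 0 were higher and 4 lower. RPA3, a subunit of the single-strand DNA binding protein, fell by 0.84 and RFC5, a clamp loader subunit, by 0.58, while TK1, thymidine kinase, was higher by 0.59. Of 34 mitosis genes 0 were called. Matrix genes also split: COL3A1 fell by 0.86 while COL1A1 rose by 0.64, and in the collagen and matrix list 2 of 23 were higher and 3 lower. YAP1, the Hippo pathway coactivator, read 5.58, 5.25, 5.99 and 5.32 with s18790, against 6.66, 6.65, 6.78 and 6.54 with control siRNA. It was above background on 1 of 4 s18790 arrays and all 4 control arrays, with a log2 difference of -1.12 (adjusted p = 0.000864 in limma). With COL3A1 and SNAI2 it made 3 lower genes of 11 mesenchymal-state markers, with 1 higher. Of 50 lysosome and autophagy genes 5 were higher, ATP6V0D1, WIPI2, CTSA, ATP6V0E1 and ULK1, with 0 lower.

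For some lists s18790 replicate 2 set the median. Cohesin, condensin and SMC genes, which hold and fold chromosomes, had a median of -0.45 with all arrays and -0.03 without that array. Over the 22 genes the array deviated from the other s18790 arrays by a median of -1.19, and control replicate 4 from the other controls by -0.62. Centriole genes had medians of -0.30 with all arrays and -0.06 without, and SR and hnRNP proteins of -0.12 and 0.02. Both arrays that lay apart thus carried lower values of these genes than their own groups, and their part in the list medians was not tested beyond leaving out s18790 replicate 2. Calls were made for 2 of 22 cohesin and SMC genes, 1 of 33 centriole genes and 0 of 32 SR and hnRNP genes. All of these calls were lower, where 9.83% of all genes were called and 4.78% were lower.

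Genes that were called in only 1 of the fits show how the array acted. RETREG1, a receptor for the degradation of the endoplasmic reticulum, read 7.10, 5.92, 7.25 and 6.90 with s18790, against 6.10, 6.49, 6.20 and 5.76 with control siRNA. The 3 other s18790 arrays were above all controls while s18790 replicate 2 lay within their range, and RETREG1 was called without it at 0.95 (adjusted p = 0.00244 in limma). SIRT5, a mitochondrial deacylase, read 5.87, 7.05, 5.87 and 5.83 with s18790, against 7.01, 6.99, 6.68 and 7.01 with control siRNA. Here the array was the highest s18790 value, and the difference without it was -1.07. The neuronal genes PLPPR4 and SCN2A were called higher and HTRA1 and GSTZ1 lower only without the array. In the other direction MAPK8IP1 and COL6A2 were called higher and OMA1 and EXOC1 lower only with it. The 82 higher genes called only with all arrays outnumbered the 21 lower ones, while 125 higher and 266 lower genes were called only without the array.

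Both siRNAs were compared with the same control arrays, so their differences are given side by side. The 497 genes higher with s18790 had a median difference of 0.60 with s18790 and 0.12 with s18789, and the 470 lower genes -0.64 and -0.20. These genes were chosen by their s18790 values, so the medians are a description only. For s18789 against control 10 genes were called (0.102%), and 6 of the 967 genes called for s18790 were among them in the same direction and 1, CHST15, in the opposite direction. The direct test of s18790 minus s18789 called 498 genes (5.06%). These included 203 of the 497 higher genes (40.8%) and 158 of the 470 lower genes (33.6%), in the same direction as against control. The same s18790 arrays enter both comparisons, so these shares too are a description only. For the remaining called genes the direct test showed no difference past the threshold, which does not show that the siRNAs acted alike. SETD1A differed from control by -0.63 with s18790 and by -0.43 with s18789, which was not called for s18789 (adjusted p = 0.619 in limma). The direct test between the siRNAs gave an adjusted p of 0.468 for SETD1A in limma.

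Some genes had differences of opposite sign for the 2 siRNAs. CHST15, which sulfates chondroitin sulfate chains, read 8.81, 8.81, 8.41 and 8.89 with s18790, against 7.54, 7.34, 7.39 and 7.76 with control siRNA. It was 1.22 higher with s18790 and -1.29 with s18789 relative to control, and the direct test gave an adjusted p of 1.20e-06 in limma. MT1F was at 1.4 with s18790 and -0.68 with s18789 (direct test, adjusted p = 6.06e-05 in limma). GFRA2 and TLE2 also had opposite signs, at 0.72 and 0.79 with s18790 and -0.65 and -0.68 with s18789. Of these genes only CHST15 was also called for s18789 against control, where MT1F had an adjusted p of 0.192 in limma. ADGRG2 was at 1.34 with s18790 and 1.17 with s18789, and GAP43 at 1.26 and 0.84, and for these the direct test did not pass the threshold.

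The calls also varied with the base composition of promoters, a look chosen after values were seen and described here without a test. Of the 9833 genes 8056 (81.9%) had a promoter window in the table. In the quartile of lowest GC 3.69% of genes were higher and 5.88% lower with s18790, and in the quartile of highest GC 7.69% were higher and 3.13% lower. Without s18790 replicate 2 the lowest quartile had 5.05% higher and 8.89% lower and the highest 7.85% higher and 4.97% lower. The genes higher in both fits had a median promoter GC of 68.0% and those lower in both fits 63.3%, against 65.3% for all genes. GC moved with the arrays too: s18790 replicate 2 deviated from its group by a median of 0.05 in the lowest quartile and 0.27 in the highest, and control replicate 4 by 0.02 and 0.14. The part of these arrays in the pattern was not tested beyond leaving out s18790 replicate 2.

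**Figure D5:**
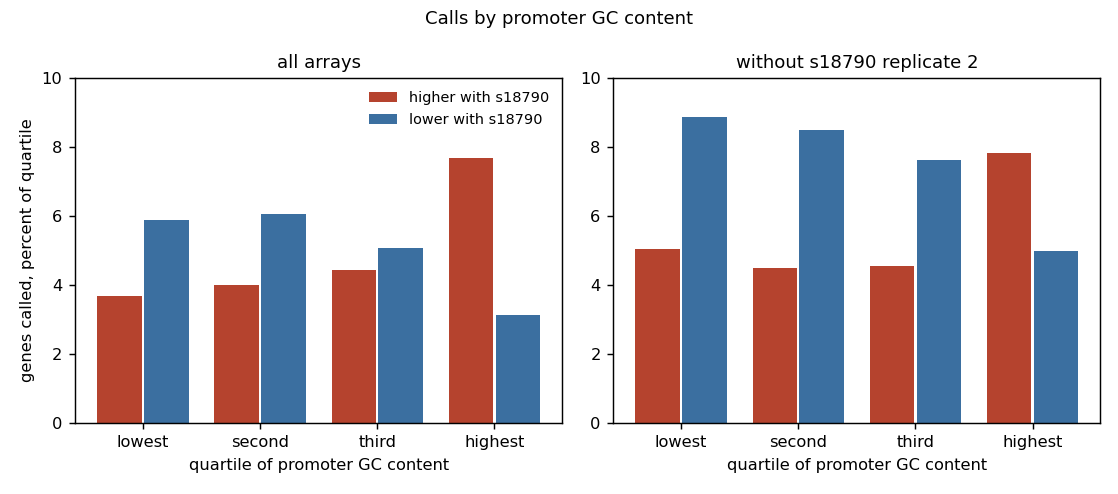
Percent of genes called higher and lower with s18790 (y axis) in quartiles of promoter GC content (x axis), with all arrays on the left and without s18790 replicate 2 on the right. In both panels higher genes exceed lower genes only in the quartile of highest GC.

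Counts by chromosome are given in the same way, without a test. On chromosome 19, 39 of 666 genes were higher and 8 lower, and without s18790 replicate 2 the counts were 36 and 23. On chromosome 13, 1 of 173 genes was higher and 13 lower, and on chromosome 4, 6 of 340 were higher and 25 lower. Without that array these counts were 2 and 16 on chromosome 13 and 10 and 28 on chromosome 4. Of all genes 5.05% were higher and 4.78% lower with all arrays, and 5.49% and 7.27% without that array. Only these chromosomes are named out of all that were counted, so the counts are a description and show no effect particular to a chromosome.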

How the data were processed

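RNA was measured on 12 arrays, 4 per siRNA group, and grouped by the labelled siRNA. Probe intensities are on a linear scale without background correction or normalization between arrays, as deposited, and GenomeStudio is the tool listed per the submitters' processing notes. Detection p-values were deposited beside each intensity, per the file headers. The authors also deposited log2 values of the same arrays, equal in distribution on every array, and no source used here states their transform. They served as an alternative.

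Intensities were corrected with the normal-exponential model (offset 16), quantile normalized and log2 transformed in limma 3.58.1 (R 4.3.3). 1 model with group means was fitted to all 12 arrays (9 residual degrees of freedom), with Benjamini-Hochberg adjustment over the 15922 probes tested. Array medians of the intensity were 63.1 to 70.2, and the number of arrays limits the precision. The procedure was tested on simulated data. Of 47321 probes 30113 had 1 gene symbol, 8 had several and 17200 had none. The detected probe with the highest mean stood for a gene, and BOLA2 had probes called in opposite directions.

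Named genes are SETD1A, the 15 largest rises and 15 largest falls called in both fits with groups that do not overlap, up to 6 each way called in only 1 fit, and up to 4 called members of each list. Other named genes were picked after their values were seen. The members and gene lists were chosen with earlier results of these data known. No source used here states chip or scan date, which could therefore not be tested as batches. Same-numbered arrays deviated together in only some pairs (correlations -0.582 to 0.575 between s18790 and control, and -0.233, 0.206, 0.462 and 0.413 between s18790 and s18789), so the numbers were not taken to pair samples. Alternatives were the background correction, the scaling, the deposited log2 values, the detection filter, the arrays in the fit, array weights, a replicate block and leaving out arrays.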

Additional observations from a re-analysis of the deposited data

Results flagged for a closer look

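A value far from the other 3 of its group was found in 29 of 332 groups of 4 arrays over the named genes, by its gap to the nearest other value relative to the range of the group (Dixon's test). Chance gives about 1 in 20, but some of the genes were named because their call depended on s18790 replicate 2, so this rate is no measure for the count. All values are normalized log2 intensities. On s18790 replicate 2 these were DKK3 at 11.41, ENO2 at 10.15, INTS2 at 5.71, LMOD3 at 9.15, LRRC23 at 5.72, NSMCE1 at 8.50, SIRT5 at 7.05, SMAD6 at 9.31, TCTN1 at 8.56 and TK1 at 9.61. On control replicate 4 they were BBS10 at 6.04, BSN at 8.44, CETN3 at 8.42, GAP43 at 8.01, HTRA1 at 7.2, MAGEC1 at 5.43, MAGEC2 at 5.21, MT1F at 7.72, RFC5 at 9.52, RPL22 at 10.77, SLC9A4 at 6.64 and TM6SF1 at 4.80. These arrays held 10 and 12 of the 29 values. The other 7 were CHST15 at 8.41 on s18790 replicate 3, SH2D3C at 5.25 on control replicate 3, SIRT5 at 6.68 on control replicate 3, SNAI2 at 7.59 on control replicate 3, GNG3 at 5.38 on control replicate 2, HAND1 at 10.50 on control replicate 2 and DUSP8 at 6.64 on control replicate 1.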

How the results depend on the processing

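The count of 1323 probes called for s18790 against control was 809 under median scaling, 428 when s18789 arrays were left out of the fit, 3117 with array weights, 829 with the replicate block and 2786 without s18790 replicate 2 and control replicate 4 together. It lay between 1156 and 1452 under the other settings that kept all arrays. Leaving out 1 array gave 583 to 1798 probes, with 583, 609 and 612 without control replicates 1, 2 and 3 and 714 without s18790 replicate 1. Median scaling called 21.4% of its probes higher, against 48.5% under quantile normalization. SETD1A stayed at -0.63 with no detection filter (adjusted p = 0.0502 in limma), without the s18789 arrays (0.10) and with the replicate block (0.0512), and was not called in these fits. Leaving out 1 array gave -0.77 to -0.51, and SETD1A was not called in the fits that left out s18790 replicate 1, s18790 replicate 4, control replicate 1 or control replicate 2. For s18790 against s18789 the 667 probes became 200 with only those groups, 1578 with array weights, 292 with the replicate block and 1633 without both arrays that lay apart, and 206 to 1084 when 1 array was left out. Only 1 of 4 s18790 arrays correlated best with the control of its own number. Under median scaling 11 of 61 list medians changed sign, 10 of them to below 0, among them the SET1 and MLL complexes (-0.03), and the lysosome list had 0 higher genes. Of 165 named genes 58 kept their side of the threshold under every alternative run, and 0 reversed. The cause of these changes was not tested. Dim probes near background give compressed differences.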
